A study of Mus musculus with 24 samples.

Results

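The 9 genes described here encode proteins of cholesterol efflux, lipoprotein handling and oxysterol synthesis, many of them known targets of the liver X receptors (LXRs). They were taken by symbol (Abca1, Abcg1, Mylip, Apoe, Apoc1, Pltp, Lpl, Ch25h and Npc1l1) from the 48820 entries of each of 4 RNA-seq count tables, and all 9 were found in all 4 tables. Of these, 8 passed the filter on low counts in every comparison. Npc1l1, the transporter through which gut and, in some species, liver cells take up cholesterol, had at most 12 counts in any library and was not tested.

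The libraries came from mice labelled C57BL/6 (C57BL/6J in the methods of the study), with 3 mice per group and 24 libraries in all. Liver macrophages (CD45+Ly6C-F4/80+CD64+) and hepatic endothelial cells (ECs, CD45-CD31+) were sorted at 8 to 10 weeks from Gdf2/Bmp10 HSC-KO mice, which carry floxed alleles of Gdf2 (Bmp9) and Bmp10 and Lrat-Cre, a Cre driver active in hepatic stellate cells (HSCs), and from control mice. Liver tissue was taken from mice of the same 2 kinds at 12 weeks. A second set of liver macrophages came, at 8 to 10 weeks, from Smad4 cKO mice (Smad4 fl/fl with Vav1-Cre, which deletes in all hematopoietic cells and not only in macrophages) and from mice labelled Smad4FF. Library names give 3 mice that supplied both a macrophage and an EC library, 1 control and 2 HSC-KO mice.

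LXRα (Nr1h3) and LXRβ (Nr1h2) are nuclear receptors that pair with retinoid X receptors such as RXRα (Rxra) and are activated by oxysterols, oxidised forms of cholesterol that build up when a cell holds too much of it. Their classic targets move cholesterol out of the cell through the transporters ABCA1 and ABCG1, hand it to apolipoproteins and remodel the particles formed, and limit lipoprotein uptake through the ubiquitin ligase IDOL (Mylip). Kupffer cells (KCs), the resident macrophages of the liver, are known to depend on LXRα for their identity.

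Total counts ran from 60911527 to 110879155 per library, and 3 counts, taken as the limit of detection, correspond to at most 0.0524 CPM (counts scaled to the depth of each library); such limits cover counting error only. Of the deleted genes, Smad4 lay between 35.3 and 42.8 CPM in Smad4FF macrophages and between 12.6 and 17.2 CPM in Smad4 cKO macrophages, and Gdf2 between 9.38 and 22.5 CPM in control livers and between 2.12 and 3.85 CPM in HSC-KO livers. The 7 KC markers summed to between 18700 and 19500 CPM in control and between 85.2 and 260 CPM in HSC-KO macrophages, and to between 18300 and 23400 CPM in Smad4FF and between 875 and 931 CPM in Smad4 cKO macrophages. The 7 pan-macrophage markers were above the limit of detection in every macrophage library, and the 12 endothelial markers in every EC library. The pan-macrophage sum was 16000 to 17600 CPM in control and 13800 to 15300 CPM in HSC-KO macrophages. It was 18200 to 22000 CPM in Smad4FF and 9440 to 13200 CPM in Smad4 cKO macrophages. The endothelial sum was 15000 to 15400 CPM in control and 11900 to 13000 CPM in HSC-KO ECs. None of the 3 pairs of sums overlapped, but single markers moved in both directions in HSC-KO cells. In HSC-KO macrophages mean Csf1r fell from 5420 to 3180 CPM and mean Itgam rose from 53.7 to 142 CPM. In HSC-KO ECs mean Ptprb fell from 5040 to 2580 CPM and mean Pecam1 rose from 494 to 879 CPM. The monocyte markers summed to at most 46.6 CPM in either control macrophage group, to between 1410 and 2140 CPM in HSC-KO macrophages and to between 645 and 914 CPM in Smad4 cKO macrophages. Most of both mutant sums was Cx3cr1, at 1370 to 2050 CPM in HSC-KO and 624 to 902 CPM in Smad4 cKO macrophages. These shifts stand beside the macrophage and EC results below and their part in them was not tested, and in bulk samples fewer cells of a type and less RNA per cell cannot be told apart.

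On GRCm38, all 9 are annotated as protein-coding genes. Abca1 lies at chr4:53030787-53159895 on the minus strand, Abcg1 at chr17:31057675-31117988 on the plus strand and Mylip at chr13:45389742-45412022 on the plus strand. Apoe (chr7:19696109-19699188) and Apoc1 (chr7:19689481-19692660) are neighbours on the minus strand of chromosome 7. Pltp (chr2:164839518-164857711, minus strand) shares 495 exon bases with Ctsa on the opposite strand, and Ch25h (chr19:34473778-34475164, minus strand) shares 159 with Gm26902, also on the opposite strand. Lpl lies at chr8:68880491-68907448 on the plus strand and Npc1l1 at chr11:6211013-6230143 on the minus strand. Whether the counting used the strand is not given in the sources used here, so reads over the shared bases of Pltp and Ch25h cannot be assigned with certainty. Ctsa, which encodes the lysosomal cathepsin A, passed the thresholds for a change in none of the 4 comparisons between genotypes.

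For 6 of the 9 genes the RefSeq tables of GRCm38.p6 held a promoter window, and none was found for Abcg1, Apoc1 and Lpl. The 250 bases before the start are shown for Abca1, an efflux gene that rose in ECs, for Pltp, which moved in all 4 comparisons, for Mylip, which fell in ECs, and for Ch25h, which rose in HSC-KO macrophages and ECs; the capitals mark motif matches.

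Abca1, chr4:53159896-53160145, minus strand: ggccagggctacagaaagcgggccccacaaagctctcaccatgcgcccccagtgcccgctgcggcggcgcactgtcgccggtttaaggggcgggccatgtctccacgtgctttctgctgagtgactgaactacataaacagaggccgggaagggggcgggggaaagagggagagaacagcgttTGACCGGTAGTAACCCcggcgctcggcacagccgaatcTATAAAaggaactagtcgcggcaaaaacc

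Pltp, chr2:164857709-164857958, minus strand: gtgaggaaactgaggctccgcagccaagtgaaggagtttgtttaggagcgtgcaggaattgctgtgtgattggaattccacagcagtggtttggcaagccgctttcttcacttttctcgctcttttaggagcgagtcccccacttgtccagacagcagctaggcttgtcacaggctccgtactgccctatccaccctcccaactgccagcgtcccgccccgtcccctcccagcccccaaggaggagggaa

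Mylip, chr13:45389492-45389741, plus strand: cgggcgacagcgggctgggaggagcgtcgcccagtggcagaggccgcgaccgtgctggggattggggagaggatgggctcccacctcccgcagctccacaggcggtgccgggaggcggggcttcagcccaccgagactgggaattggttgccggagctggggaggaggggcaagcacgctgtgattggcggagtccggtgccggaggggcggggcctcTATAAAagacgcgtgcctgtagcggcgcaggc

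Ch25h, chr19:34475149-34475398, minus strand: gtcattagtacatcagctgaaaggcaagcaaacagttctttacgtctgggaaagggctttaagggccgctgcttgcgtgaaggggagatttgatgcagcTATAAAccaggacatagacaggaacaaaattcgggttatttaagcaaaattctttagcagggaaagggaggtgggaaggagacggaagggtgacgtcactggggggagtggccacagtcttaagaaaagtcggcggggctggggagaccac

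The LXR/RXR motif is a direct repeat of the half-site AGGTCA with 4 bases of any kind between the copies. Searched on both strands, like the other motifs, it matched none of the members' windows and 0.0152% of all 32851 windows of 250 bases. A degenerate form of this repeat with 1 mismatch allowed, searched after the exact repeat had been, matched Abca1 in reverse orientation 67 bases before the start (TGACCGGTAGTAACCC) and 4.05% of all windows. A single half-site, which the repeat also contains, was present in reverse orientation in the window of Npc1l1, 100 bases before the start, and in 14% of all windows. TATAAA stood 29 bases before the start of Abca1, 32 before that of Mylip and 151 before that of Ch25h, it occurred at 96 bases, overlapping a copy on the other strand at 100, in 1 of the 3 windows of Apoe, and it was in 12.4% of all windows. The SMAD motifs GGCGCC and GTCTAGAC were in none of the members' windows and in 9.59% and 0.167% of all windows. These matches describe letters in a short window and say nothing of whether a factor binds there or at a distance.

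Levels in the control groups differed widely between cell types. In control macrophages, the mean CPM per kilobase of annotated exon was highest for Apoe, the ligand through which lipoproteins are taken up (20700 ± 1530 SD, n = 3), then for Apoc1 (855 ± 96.0), Pltp (479 ± 35), Abcg1 (307 ± 74.0), Lpl (106 ± 17.9), Mylip (40.2 ± 3.99), Abca1 (11.5 ± 3.53) and Ch25h (0.394 ± 0.229). The mean ± SD of no gene in this order overlapped that of its neighbour. Apoe alone took 4.09 to 4.41% of all counts in control macrophages.

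Between control macrophages and control ECs, edgeR's quasi-likelihood test called 7 of the 8 members tested, 6 higher in macrophages and 1 lower, at a Benjamini-Hochberg adjusted p below 0.05 and a log2 fold change above 1 in size; among all 16160 genes tested, 35.9% were called (18.0% higher, 17.9% lower). The groups did not overlap for the same 7 members, against 62.3% of all genes. Lpl was 10.08 ± 0.28 (SE) higher in macrophages on the log2 scale (adjusted p = 1.9e-06), Apoc1 7.92 ± 0.23 (1.9e-06) and Pltp 7.74 ± 0.34 (6.4e-06). Apoe (3.07 ± 0.65, adjusted p = 0.0066), Abca1 (2.85 ± 0.34, 4.8e-04) and Abcg1 (1.71 ± 0.22, 7.2e-04) were also higher in macrophages. Mylip was higher in ECs, with a log2 fold change of -2.14 ± 0.21 (adjusted p = 1.9e-04). Ch25h had -1.53 ± 0.57 and did not pass (adjusted p = 0.059 in edgeR), whereas DESeq2 called it (adjusted p = 0.028).

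On a scale shared by all 24 libraries, control livers held most Abca1 (173 ± 9.80 CPM, SD, n = 3), followed by control macrophages (123 ± 39.2), Smad4FF macrophages (54.1 ± 11.0) and control ECs (16.0 ± 5.54). Apoc1 was also at its highest in control livers (1010 ± 123 CPM), with Smad4FF macrophages next (885 ± 131), and these neighbours did not differ beyond their spread. Abcg1 in livers (9.06 ± 0.910 CPM) was at 0.392% of its level in control macrophages, and Lpl in livers at 1.71%. Mylip was highest in control ECs (555 ± 128 CPM) and lowest in control livers (19.0 ± 2.21). Apoe was highest in the macrophages (59900 ± 14300 CPM in Smad4FF and 45700 ± 3160 in control), followed by livers (23100 ± 1830) and ECs (5120 ± 3480). Pltp (1340 ± 236 and 1270 ± 108 CPM in the same macrophages) was at 86.1 ± 28.3 CPM in livers and 5.54 ± 1.86 in ECs. The macrophage groups did not differ beyond their spread for either gene. Ch25h was below 3 CPM in every control library and highest in ECs (1.52 ± 0.584). Control macrophages (0.562 ± 0.316) did not differ beyond their spread from Smad4FF macrophages (0.421 ± 0.0754) or from livers (0.198 ± 0.0547). Scaling over tissues this different rests on the assumption that most genes do not change, which was not tested.

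**Figure D1:**
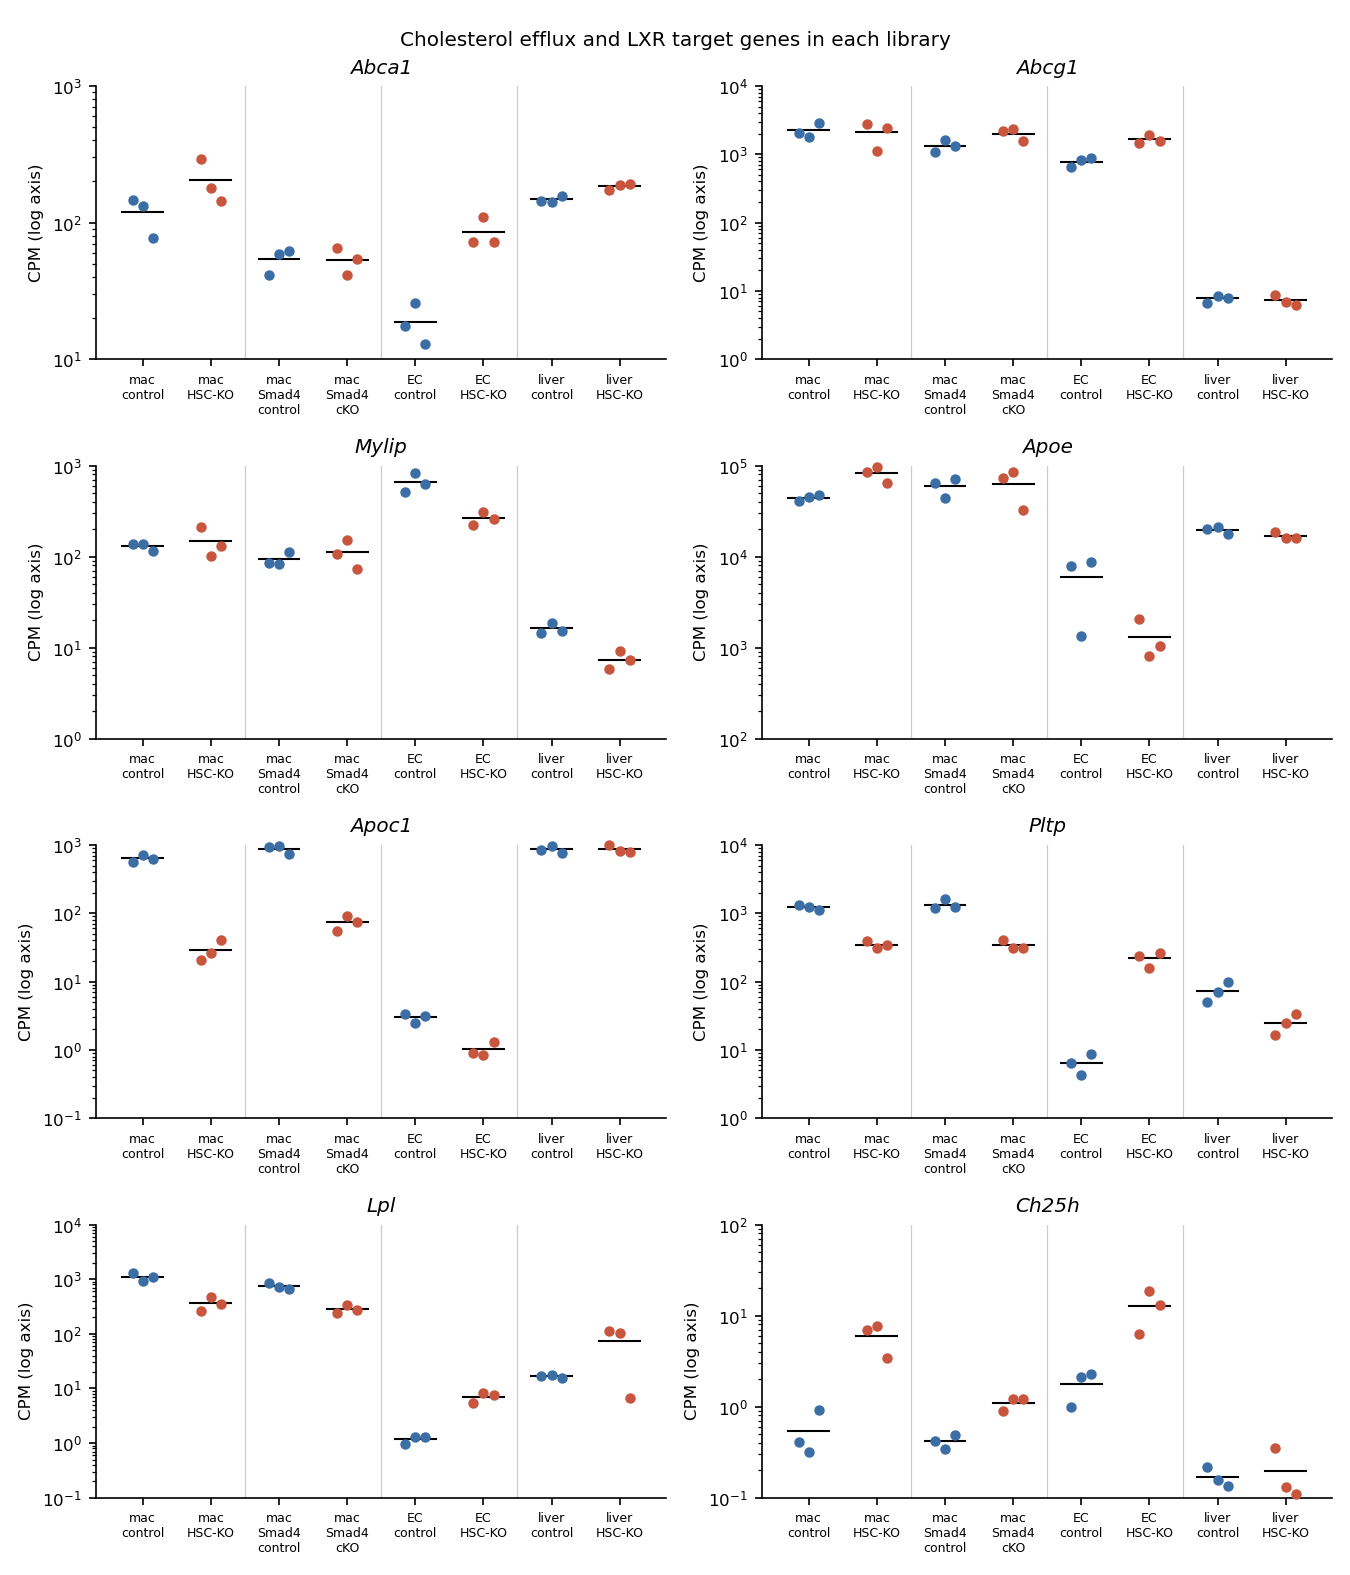
CPM (log axis) of the 8 members tested in each of the 24 libraries, with 1 point per mouse and a bar at the group mean; blue marks control and red mutant groups, and each pair of groups was scaled within its own table, and "Smad4 control" is Smad4FF. Pltp fell from at least 1130 CPM in both control macrophage groups to between 308 and 408 CPM in both mutants, rose in ECs from at most 8.70 to at least 156 CPM, and fell in livers.

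Whether loss of GDF2 and BMP10 from HSCs reached these genes in liver macrophages was asked first. In HSC-KO macrophages, Apoc1, Pltp and Lpl were downregulated, the oxysterol-producing enzyme Ch25h was upregulated, and no change of the efflux transporters passed the thresholds. edgeR called 4 of the 8 members tested, 1 higher and 3 lower, against 11.7% of all 16337 genes (6.32% higher, 5.34% lower). The median log2 fold change over the members was 0.05 and over all genes 0.04.

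The apolipoprotein genes moved in opposite directions. Apoc1, whose product inhibits lipoprotein uptake and lipases, was at 571, 712 and 625 CPM in control replicates 1, 2 and 3 and at 20.4, 26.3 and 40.2 CPM in HSC-KO replicates 1, 2 and 3. Every HSC-KO library was far below every control library, with a log2 fold change of -4.46 ± 0.28 (SE; adjusted p = 8.6e-05 in edgeR). Apoe was at 40600, 45200 and 47000 CPM in control and at 85600, 96900 and 64300 CPM in HSC-KO macrophages. All 3 HSC-KO libraries were higher, and its log2 fold change of 0.89 ± 0.21 passed the adjusted p (0.024 in edgeR) but not the fold threshold. In HSC-KO macrophages Apoe took 6.78 to 9.84% of all counts.

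Pltp encodes the phospholipid transfer protein that remodels high-density lipoproteins. Its level was 1310, 1230 and 1130 CPM in control and 393, 311 and 343 CPM in HSC-KO macrophages, so that the groups were well apart, and the log2 fold change was -1.81 ± 0.14 (adjusted p = 2.3e-04 in edgeR). Lpl, the lipase that releases fatty acids from triglyceride-rich lipoproteins, was at 1310, 935 and 1100 CPM in control and at 259, 469 and 348 CPM in HSC-KO macrophages. These groups did not overlap either, with a log2 fold change of -1.64 ± 0.24 (adjusted p = 0.0031 in edgeR). When the null was a log2 fold change of 1 (glmTreat), Apoc1, Pltp and Ch25h passed and Lpl did not (adjusted p = 0.058).

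Ch25h, the enzyme that makes 25-hydroxycholesterol, rose from a low level. It was at 0.414, 0.318 and 0.909 CPM in control and at 6.95, 7.71 and 3.39 CPM in HSC-KO macrophages, all above the limit of detection, with 27 to 52 counts per control library and 309 to 735 per HSC-KO library. The lowest HSC-KO library was above the highest control library, and the log2 fold change was 3.47 ± 0.52 (adjusted p = 0.0035 in edgeR). Gm26902, which overlaps it, had 0 counts in all 3 control libraries and 51, 103 and 0 in HSC-KO replicates 1, 2 and 3.

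For the transporters and Mylip, the libraries of the 2 groups overlapped. Abca1 was at 147, 132 and 77.6 CPM in control and at 293, 180 and 144 CPM in HSC-KO macrophages, where the lowest HSC-KO value lay below the highest control value (log2 fold change 0.79 ± 0.31, adjusted p = 0.13 in edgeR). With Xist status as a covariate, which sets apart the 1 control and 2 HSC-KO libraries with Xist counts, its log2 fold change was 1.07 and passed (adjusted p = 0.003 in edgeR). Abcg1 was at 2070, 1810 and 2840 CPM in control and at 2800, 1130 and 2390 CPM in HSC-KO macrophages (-0.09 ± 0.33, adjusted p = 0.89). Mylip was at 137, 137 and 115 CPM in control and at 211, 101 and 130 CPM in HSC-KO macrophages (0.18 ± 0.25, adjusted p = 0.66). Both spread more in the HSC-KO group than between the group means. Among the 8 members, 5 did not overlap between the groups, against 40.3% of all genes. Npc1l1 had no count in any HSC-KO macrophage library and 0 to 12 counts in control libraries.

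Smad4 carries the signal of BMP receptors to the nucleus, and its deletion in hematopoietic cells was the second perturbation of liver macrophages. Of the 8 members tested, 3 were called in Smad4 cKO macrophages, all lower and all of them also called lower in HSC-KO macrophages (Apoc1, Pltp and Lpl); 5.43% of all 17517 genes were called (2.76% higher, 2.67% lower). The members' median log2 fold change was 0.04, equal to that of all genes.

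Apoc1 was at 929, 983 and 736 CPM in Smad4FF and at 55.5, 91.6 and 73.4 CPM in Smad4 cKO macrophages (log2 fold change -3.59 ± 0.22, adjusted p = 1.8e-04 in edgeR). Pltp was at 1180, 1610 and 1240 CPM and at 408, 314 and 308 CPM (-1.97 ± 0.18, adjusted p = 9.3e-04), and Lpl at 840, 720 and 670 CPM and at 244, 338 and 269 CPM (-1.39 ± 0.16, adjusted p = 0.0025). For each of the 3 genes, every cKO library was below every Smad4FF library. Lpl did not pass glmTreat (adjusted p = 0.18).

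Ch25h was at 0.422, 0.343 and 0.494 CPM in Smad4FF and at 0.886, 1.22 and 1.21 CPM in Smad4 cKO macrophages. The groups did not overlap, but its log2 fold change of 1.39 ± 0.34 fell just short of the threshold in edgeR (adjusted p = 0.0504). DESeq2 called it (adjusted p = 0.017), as did edgeR with library size alone (0.032) and with genes of at least 10 counts in every library (0.033). Across the members, 4 did not overlap between the groups, against 29.4% of all genes.

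The transporters again overlapped between groups. Abca1 was at 41.5, 58.9 and 61.6 CPM in Smad4FF and at 64.9, 41.3 and 54.6 CPM in Smad4 cKO macrophages (-0.01 ± 0.21, adjusted p = 0.98 in edgeR). Abcg1 was at 1090, 1620 and 1310 CPM and at 2160, 2340 and 1540 CPM (0.59 ± 0.20, adjusted p = 0.14), with 2 of the 3 cKO libraries above all Smad4FF libraries. Mylip lay between 82.6 and 112 CPM in Smad4FF and between 73.5 and 153 CPM in Smad4 cKO macrophages (0.25 ± 0.26, adjusted p = 0.67). Apoe was at 64800, 43600 and 70900 CPM and at 73400, 84200 and 32400 CPM (0.08 ± 0.35, adjusted p = 0.92). Its lowest and its highest value both came from Smad4 cKO libraries. The endothelial markers summed to between 539 and 1920 CPM in the macrophages of this table and to between 11.8 and 270 CPM in those of the HSC-KO table, and the part of EC transcripts in these values was not tested.

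The 2 perturbations were compared directly over 12 macrophage libraries. None of the 8 members differed in fold change between HSC-KO and Smad4 cKO macrophages in edgeR, against 2.61% of all 18149 genes (1.42% higher, 1.18% lower); 2 had an unadjusted p below 0.05, and DESeq2 called 1, Ch25h. The difference of log2 fold changes was 2.12 ± 0.60 for Ch25h (adjusted p = 0.091 in edgeR, 0.017 in DESeq2) and -0.82 ± 0.34 for Apoc1 (adjusted p = 0.26). Without control replicate 3 of the HSC-KO table, which had the highest Ch25h among the controls, the difference for Ch25h was 2.62 (adjusted p = 0.039), and without HSC-KO replicate 3 it was 2.41 (0.047). For Pltp the difference was 0.20 ± 0.23, for Lpl -0.20 ± 0.30, for Abca1 0.85 ± 0.42, for Apoe 0.86 ± 0.44, for Abcg1 -0.63 ± 0.43 and for Mylip -0.02 ± 0.40. None of these reached an adjusted p below 0.35.

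**Figure D2:**
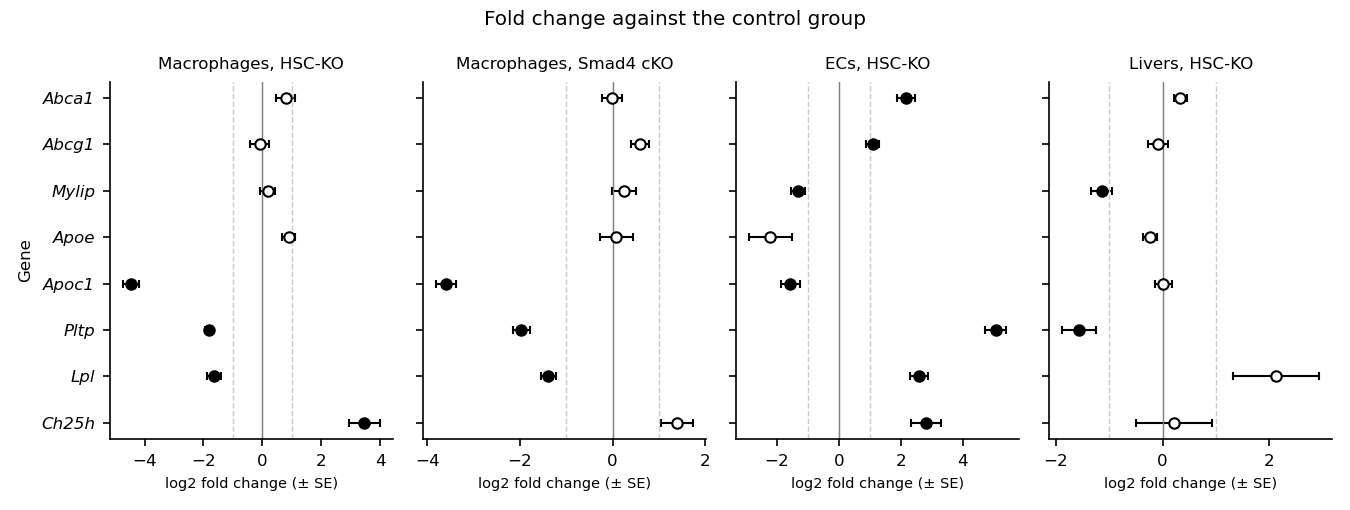
Log2 fold change of each member against its own control group (bars: standard error of edgeR's quasi-likelihood fit) in the 4 comparisons; filled points passed both thresholds and the dashed lines mark a log2 fold change of 1 in either direction. Apoc1, Pltp and Lpl lie below 0 in both macrophage panels, whereas Pltp (5.06) and Lpl (2.59) lie above 0 in ECs.

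In HSC-KO ECs, edgeR called 7 of the 8 members tested, 5 higher and 2 lower, against 13.7% of all 16053 genes (7.68% higher, 6.01% lower), and the same 7 did not overlap between the groups, against 40.4% of all genes. The members' median log2 fold change was 1.63, beside 0.00 for all genes.

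Both efflux transporters were upregulated. Abca1 was at 17.6, 25.9 and 12.9 CPM in control and at 72.5, 109 and 72.6 CPM in HSC-KO ECs, with no overlap and a log2 fold change of 2.17 ± 0.29 (adjusted p = 0.0021 in edgeR). Abcg1 was at 643, 816 and 871 CPM and at 1460, 1920 and 1570 CPM (1.09 ± 0.20, adjusted p = 0.0079). Abcg1 was close to the fold threshold, and its log2 fold change was 0.97 without control replicate 1 and 0.96 without HSC-KO replicate 2, each with an adjusted p of 0.027 in edgeR. Mylip moved the other way, from 509, 818 and 633 CPM to 220, 310 and 259 CPM, again with no overlap (-1.31 ± 0.22, adjusted p = 0.0059).

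Pltp showed the largest change among the members. It was at 6.54, 4.30 and 8.70 CPM in control and at 237, 156 and 262 CPM in HSC-KO ECs, with a log2 fold change of 5.06 ± 0.34 (adjusted p = 1.2e-04 in edgeR). The values in HSC-KO ECs remained below the 308 to 408 CPM of the mutant macrophages. Lpl rose from 0.952, 1.29 and 1.28 CPM to 5.46, 8.21 and 7.47 CPM (2.59 ± 0.28, adjusted p = 8.0e-04), and Ch25h from 0.989, 2.09 and 2.29 CPM to 6.20, 18.6 and 13.2 CPM (2.82 ± 0.48, adjusted p = 0.006). In all 3 genes every HSC-KO library was above every control library. Gm26902, which shares exon bases with Ch25h, was also higher in HSC-KO ECs (2.48 on the log2 scale, adjusted p = 0.023 in edgeR), at 1.03 to 1.20 CPM.

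Of the apolipoprotein genes, Apoc1 fell in HSC-KO ECs and Apoe did not pass. Apoc1 was at 3.36, 2.51 and 3.14 CPM in control and at 0.912, 0.837 and 1.30 CPM in HSC-KO ECs (-1.56 ± 0.32, adjusted p = 0.013 in edgeR). Apoe was at 7920, 1330 and 8810 CPM in control and at 2070, 801 and 1040 CPM in HSC-KO ECs, and the groups overlapped through control replicate 2. Its log2 fold change of -2.21 ± 0.69 did not pass (adjusted p = 0.061 in edgeR) but passed in DESeq2 (0.011), without control replicate 2 (-2.68, adjusted p = 0.0094 in edgeR) and without HSC-KO replicate 1 (-2.71, adjusted p = 0.047).

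KC transcripts moved with the genotype in these EC libraries. The 7 KC markers summed to between 291 and 319 CPM in control ECs, with all 7 above the limit of detection, and to between 1.58 and 10.1 CPM in HSC-KO ECs, where Clec4f, Vsig4, Timd4, Fabp7 and Marco were at 0 in every library. Most of the control sum was Clec1b (277 to 306 CPM), which sinusoidal ECs express as well. Cd5l and Clec4f stood in control ECs at 0.0863% and 0.0668% of their level in control macrophages. On the same scale Lpl in control ECs stood at 0.104%, Apoc1 at 0.472%, Pltp at 0.53%, Apoe at 13.6% and Abca1 at 15.8%. Lpl was thus close to the share of the KC markers, and the part of KC transcripts in the values of Apoc1 and Apoe was not tested. The 8 stellate cell markers summed to 124, 85.8 and 32.4 CPM in control replicates 1, 2 and 3. In the same libraries the hepatocyte markers summed to 115, 57.7 and 78.8 CPM and the pan-macrophage markers to 29, 23.7 and 27 CPM. The 5 monocyte markers summed to between 1.90 and 4.42 CPM in control and between 65.3 and 79.7 CPM in HSC-KO ECs, nearly all of it Ly6c2 (62.2 to 77.0 CPM in HSC-KO ECs), with Ccr2 at no more than 0.112 CPM. The part of any of these in the EC results was not tested.

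Across HSC-KO mice, the fold changes of macrophages and ECs were compared over 12 libraries, of which 6 came from 3 mice that gave both cell types and were treated as independent. The fold change differed for 5 of the 8 members, 2 higher in macrophages and 3 lower, against 12.3% of all 18213 genes (6.32% higher, 6.00% lower). Pltp differed most, by -6.87 ± 0.39 (macrophages minus ECs, log2; adjusted p = 3.9e-06 in edgeR), followed by Lpl (-4.22 ± 0.35, 3.3e-05), Apoe (3.11 ± 0.81, 0.025), Apoc1 (-2.89 ± 0.36, 3.8e-04) and Mylip (1.51 ± 0.37, 0.02). Pltp and Lpl fell in macrophages and rose in ECs. Apoc1 fell in both, more so in macrophages. Abca1 (-1.37 ± 0.48, adjusted p = 0.08) and Abcg1 (-1.17 ± 0.43, 0.094) did not pass in edgeR and did in DESeq2 (0.032 and 0.041), and Ch25h differed by 0.67 ± 0.73 (adjusted p = 0.61 in edgeR). The difference for Apoe lost its call without any 1 of 9 of the 12 libraries, with adjusted p between 0.051 and 0.063.

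**Figure D3:**
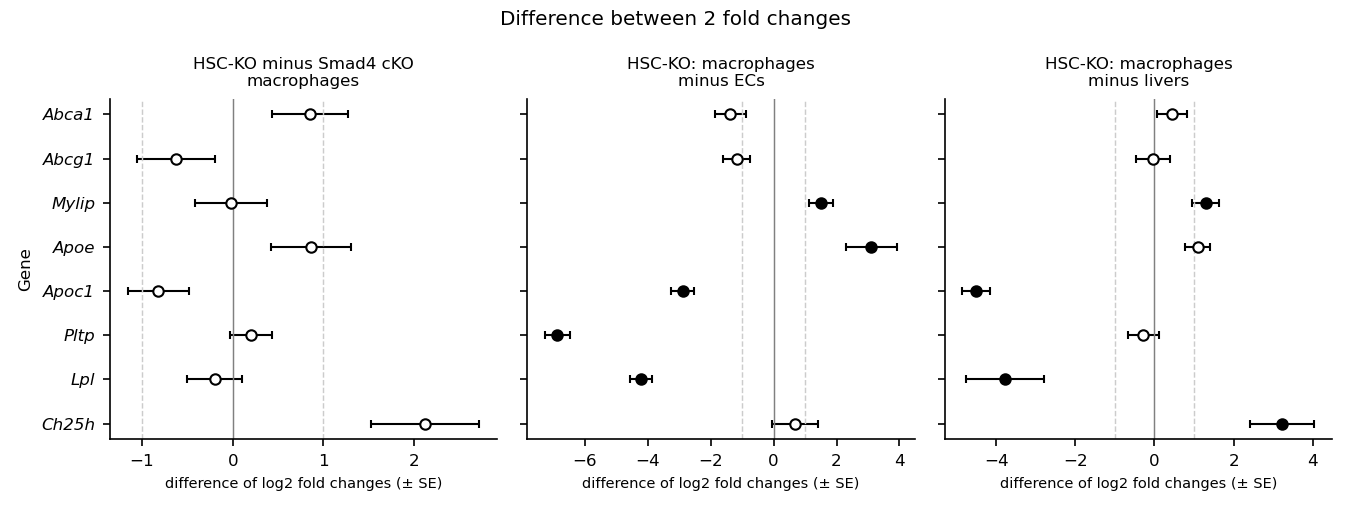
Difference between 2 log2 fold changes for each member (bars: standard error) for HSC-KO minus Smad4 cKO macrophages, and for macrophages minus ECs and macrophages minus livers of HSC-KO mice; filled points passed both thresholds. No point is filled for the 2 macrophage perturbations, and Pltp (-6.87) lies farthest from 0 in the comparison with ECs.

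Whole livers, in which hepatocytes give most of the RNA, were compared at 12 weeks. edgeR called 2 of the 8 members tested, Mylip and Pltp, both lower, against 2.48% of all 17118 genes (1.03% higher, 1.45% lower), and 3 did not overlap between the groups, against 19.7%. Mylip was at 14.6, 18.8 and 15.4 CPM in control and at 5.78, 9.10 and 7.29 CPM in HSC-KO livers (-1.14 ± 0.20, adjusted p = 0.028 in edgeR). Pltp was at 50.3, 71.2 and 99.4 CPM and at 16.4, 24.9 and 33.6 CPM (-1.56 ± 0.32, adjusted p = 0.049). All HSC-KO values of both genes were below all control values. Both calls were near the threshold: Mylip kept its call without HSC-KO replicate 2 and lost it without any other library, and Pltp kept its call without HSC-KO replicate 3 and lost it without any other. The KC markers summed to between 159 and 290 CPM in control and between 1.18 and 2.13 CPM in HSC-KO livers, and the pan-macrophage markers to 196 to 301 CPM and 74.3 to 164 CPM. The hepatocyte markers summed to 113000 to 139000 CPM in control and 149000 to 192000 CPM in HSC-KO livers. The stellate cell markers summed to 271 to 361 CPM and 472 to 520 CPM. Both sums were higher in every HSC-KO liver, but not every marker was. Mean Alb was at 87600 and 125000 CPM in control and HSC-KO livers, and mean Ttr at 3790 and 3270 CPM. Mean Dcn was at 121 and 225 CPM, and mean Lrat at 19.8 and 17.5 CPM. The part of these shifts in the liver results was not tested.

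Lpl split the HSC-KO livers. It was at 16.6, 17.9 and 15.8 CPM in control livers and at 111, 102 and 6.66 CPM in HSC-KO replicates 1, 2 and 3. The first 2 HSC-KO livers were above all controls and the third was below them, so that the log2 fold change of 2.12 ± 0.81 did not pass (adjusted p = 0.31 in edgeR). HSC-KO replicate 3 was also the only liver library without appreciable Xist counts (0.167 CPM, beside at least 303 CPM in the other 5). Without it, or with Xist status as a covariate, which amounts to the same comparison, the log2 fold change was 2.66 (adjusted p = 4.4e-04 and 3.9e-04); the sex of this mouse and any other trait of the library cannot be told apart.

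Abca1 was at 144, 142 and 157 CPM in control and at 172, 190 and 193 CPM in HSC-KO livers, a small shift without overlap that did not pass (0.33 ± 0.12, adjusted p = 0.28 in edgeR). Apoc1 lay between 752 and 979 CPM in control and between 797 and 987 CPM in HSC-KO livers (0.01 ± 0.16, adjusted p = 0.99), and Apoe between 17900 and 21100 CPM and between 15800 and 18700 CPM (-0.23 ± 0.13, adjusted p = 0.55). The groups of both genes overlapped. Abcg1 (6.21 to 8.86 CPM over all 6 livers; -0.08 ± 0.19) and Ch25h (0.111 to 0.348 CPM; 0.21 ± 0.71) were low and overlapped too. Npc1l1 had 0 counts in all 6 liver libraries.

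The fold changes of macrophages and livers of HSC-KO mice differed for 4 of the 8 members, 2 higher in macrophages and 2 lower, against 7.56% of all 19057 genes (4.24% higher, 3.32% lower). The difference (macrophages minus livers, log2) was -4.50 ± 0.35 for Apoc1 (adjusted p = 4.9e-05 in edgeR), -3.77 ± 0.98 for Lpl (0.035), 3.23 ± 0.81 for Ch25h (0.03) and 1.29 ± 0.35 for Mylip (0.042). Apoc1 fell in macrophages and stood at a ratio near 1 in livers. For Lpl the difference was -4.31 without liver HSC-KO replicate 3, the only library of the 12 without which its call was kept. Of the 4, only Apoc1 kept its call without each of the 12 libraries. Apoe differed by 1.09 ± 0.31 and did not pass in edgeR (adjusted p = 0.054), but was called in 5 of 20 alternatives, among them DESeq2 (1.7e-04). Pltp fell in both, and its fold changes differed by -0.28 ± 0.39 (adjusted p = 0.75).

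The LXR and RXR genes were measured in the same libraries. Nr1h3 was at 724, 652 and 1150 CPM in control and at 30.7, 20.1 and 78.6 CPM in HSC-KO macrophages (-4.29 ± 0.54, adjusted p = 0.0017 in edgeR), and at 1170, 1610 and 1200 CPM in Smad4FF and 149, 120 and 109 CPM in Smad4 cKO macrophages (-3.40 ± 0.19, 1.3e-04). Every mutant library was below every control library in both. In ECs Nr1h3 rose, from 1.77, 1.36 and 3.11 CPM to 6.67, 9.83 and 10.4 CPM (2.11 ± 0.36, adjusted p = 0.0061), and in livers it lay between 86.7 and 96.8 CPM in control and between 69.3 and 84.2 CPM in HSC-KO libraries (-0.25 ± 0.12, adjusted p = 0.47). The fold change of Nr1h3 differed between macrophages and ECs by -6.38 ± 0.71 (adjusted p = 1.9e-04).

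Rxra was at 278, 277 and 241 CPM in control and at 111, 72.3 and 109 CPM in HSC-KO macrophages, with no overlap (-1.44 ± 0.18, adjusted p = 0.0017 in edgeR). In Smad4 cKO macrophages it was at 148, 121 and 152 CPM, beside 187 to 193 CPM in Smad4FF (-0.43 ± 0.12, adjusted p = 0.086), and the difference between the perturbations was -0.97 ± 0.23 (adjusted p = 0.045, below the fold threshold). Rxra had -0.15 ± 0.16 in ECs and -0.15 ± 0.15 in livers and passed in neither. Nr1h2 passed both thresholds in none of the 4 comparisons, with -0.53 ± 0.14 in HSC-KO macrophages (adjusted p = 0.037), -0.04 ± 0.17 in Smad4 cKO macrophages, 0.21 ± 0.12 in ECs and -0.02 ± 0.12 in livers.

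**Figure D4:**
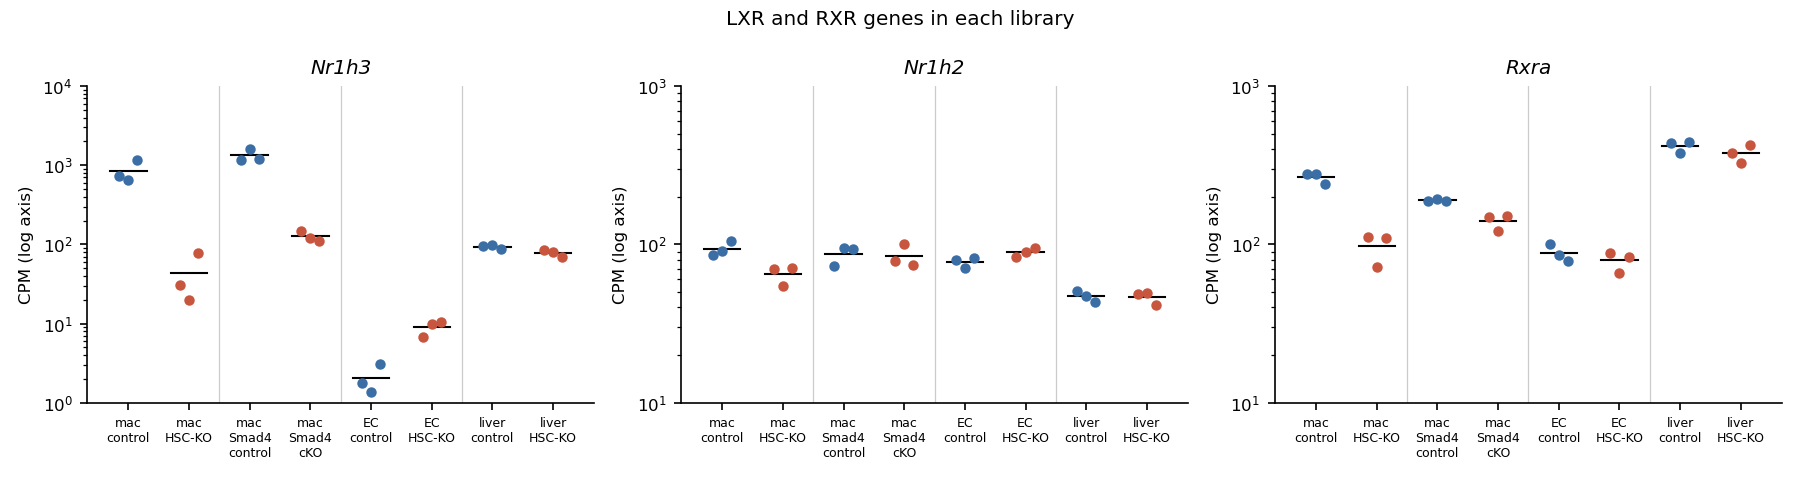
CPM (log axis) of the receptor genes Nr1h3, Nr1h2 and Rxra in each of the 24 libraries, with 1 point per mouse and a bar at the group mean; blue marks control and red mutant groups. Nr1h3 lies at 652 CPM or more in control macrophages and at 149 CPM or less in both mutants, and rises in ECs from at most 3.11 CPM to at least 6.67 CPM.

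Further genes of the pathway are given by list, and their counts stand beside 11.7% of all genes called in HSC-KO macrophages, 5.43% in Smad4 cKO macrophages, 13.7% in ECs and 2.48% in livers; with lists this short, 1 or 2 genes can set a share. Among 16 other LXR target genes, 13 were tested in HSC-KO macrophages and 3 were called, all lower; in Smad4 cKO macrophages 13 were tested, with 2 called higher and 3 lower. Their median log2 fold changes were -0.28 and -0.18, beside 0.04 for all genes in each. Cd5l, which encodes a secreted KC protein, fell by 8.21 and 7.13 on the log2 scale, the acid sphingomyelinase-like Smpdl3a by 3.65 and 1.70, and Scd1, the desaturase that makes monounsaturated fatty acids, by 3.50 and 3.64. All 6 of these falls were called. Mlxipl, which encodes the carbohydrate-sensing factor ChREBP, was at 0.524 to 0.910 CPM in control and 0.832 to 1.82 CPM in HSC-KO macrophages, but rose in Smad4 cKO macrophages from at most 0.620 to between 45.7 and 74.1 CPM (6.70 ± 0.25, adjusted p = 4.2e-05 in edgeR). Smpdl3a (-1.90 ± 0.22, adjusted p = 9.3e-04) and Mlxipl (-5.89 ± 0.43, 1.6e-04) differed between the perturbations.

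In ECs, 10 of these targets were tested, with 1 called higher and 3 lower and a median log2 fold change of 0.00, as for all genes. The efferocytosis receptor Mertk had -1.66 ± 0.25 (adjusted p = 0.0035 in edgeR) and Arl4c, a small GTPase, -1.10 ± 0.27 (0.024). In livers 2 of 15 were called, both lower, Cd5l (-7.62) and Mertk (-1.19), with a median of 0.02 beside -0.01 for all genes.

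Of the 21 genes of sterol synthesis and uptake, none was called in either macrophage comparison or in livers. Their median log2 fold changes were 0.18 in HSC-KO macrophages, -0.17 in Smad4 cKO macrophages and 0.03 in livers. In ECs, 3 of 20 were called, all lower, a share near the 13.7% of all genes. The median over the list was -0.42 in ECs, beside 0.00 for all genes.

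Among 12 genes of cholesterol storage and trafficking, 3 were called in each macrophage comparison, 1 higher and 2 lower (11.7% and 5.43% of all genes in HSC-KO and Smad4 cKO macrophages). Lipa, the lysosomal acid lipase, fell in HSC-KO macrophages (-1.25 ± 0.17, adjusted p = 0.0021 in edgeR) and Soat1, which esterifies cholesterol for storage, in Smad4 cKO macrophages (-1.49 ± 0.13, 7.3e-04; -0.98 ± 0.12 in HSC-KO macrophages, adjusted p = 0.0015, below the fold threshold and without overlap), and Gramd1b, a sterol carrier between plasma membrane and endoplasmic reticulum, rose in both (1.36 and 1.42). The difference between the perturbations for Soat1 was 0.56 ± 0.17 (adjusted p = 0.1 in edgeR). In ECs 1 of the 12 was called higher and 3 lower (13.7% of all genes). Scarb1, the receptor for high-density lipoprotein, rose from 227, 185 and 235 CPM to 1170, 1690 and 2070 CPM (2.93 ± 0.25, adjusted p = 3.0e-04), while the transporter Abca7 (-1.55) and Soat1 (-1.46) fell. The list's median was -0.07 in HSC-KO macrophages, 0.07 in Smad4 cKO macrophages, -0.53 in ECs and -0.14 in livers, where 1 of 12 was called, lower, beside 0.04, 0.04, 0.00 and -0.01 for all genes.

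Partners of lipoprotein lipase include Angptl4, a secreted inhibitor of the enzyme. Angptl4 was at 10.7, 13.1 and 14.8 CPM in control and at 40.9, 45.0 and 23.9 CPM in HSC-KO macrophages (1.51 ± 0.25, adjusted p = 0.006 in edgeR), where Lpl fell. In ECs it rose from 0.769, 0.307 and 1.53 CPM to 53.9, 10.3 and 19.7 CPM (4.99 ± 0.79, adjusted p = 0.0047), where Lpl rose as well. It was the only partner called in HSC-KO macrophages (of 9 tested) and in ECs (of 11 tested), and none was called in Smad4 cKO macrophages (of 10) or livers (of 12), no more than the shares of all genes (11.7%, 13.7%, 5.43% and 2.48%). Of 6 oxysterol and bile acid enzymes, 1 was called in HSC-KO macrophages, higher, none in Smad4 cKO macrophages or livers, and 2 in ECs, where Cyp39a1, an oxysterol hydroxylase, rose (1.96 ± 0.40, adjusted p = 0.013). Of 7 HDL and apolipoprotein genes of hepatocytes, none was called in macrophages, 1 higher and 2 lower in ECs, and 1 in livers, Apoa4, which fell (-1.65 ± 0.27, adjusted p = 0.021).

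**Figure D5:**
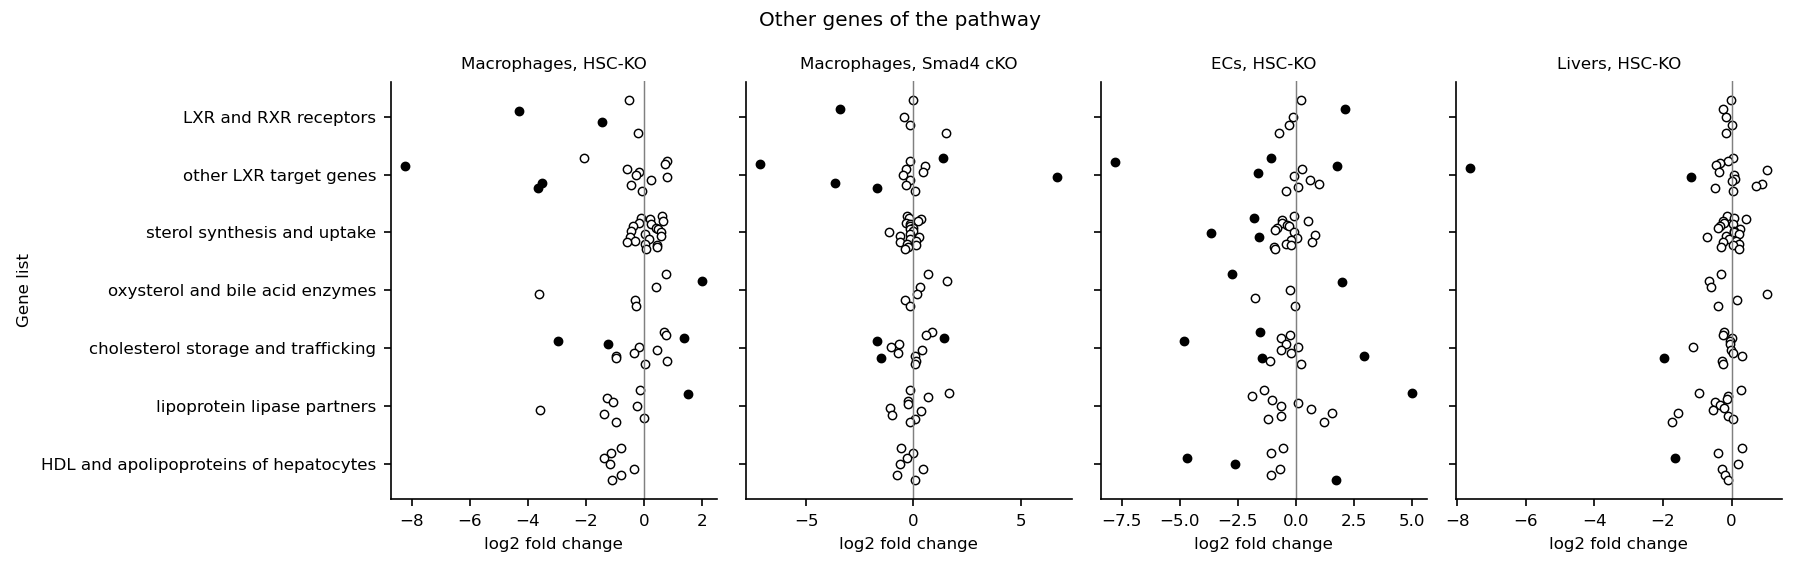
Log2 fold change of every tested gene of 7 further lists in the 4 comparisons, with 1 point per gene; filled points passed both thresholds. The sterol synthesis and uptake list has no filled point in either macrophage panel or in livers and 3 in ECs, all below 0.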

How the data were processed

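RNA-seq libraries had been mapped to mm10 (GRCm38) by the authors using HISAT2 and summarised by featureCounts; the deposited files are 4 tables of raw counts, with 1 column per library and no pooling. Versions, annotation release, strand setting and how multiply mapped reads were handled are not given in the sources used here, and the paper and the labels name different library kits. In R 4.3.3, each comparison was fitted on its own 6 libraries with edgeR 4.0.16 (filterByExpr with a minimum count of 10 and a minimum total of 15, TMM factors, quasi-likelihood test, limma 3.58.1). A call needed a Benjamini-Hochberg adjusted p below 0.05 and a log2 fold change above 1 in size, as in the study's methods; the study used DESeq2, here (1.42.0) an alternative. Differences between fold changes were interaction terms over 12 libraries. The SE is the log2 fold change divided by the square root of F. CPM used the TMM factors of a library's own table, or of all 24 libraries where stated.

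Tables fitted together had been counted separately by the authors. Symbols shared by more than 1 entry (237) were left out of fits over 2 tables. The study states that replicates were biological, so the tests between genotypes rest on the spread between mice. The fits that joined macrophages and ECs treated libraries of the same mouse as independent. Coordinates came from GENCODE vM21, which held 95.5% of the symbols, and promoters from RefSeq (Python 3.11.15). Counts were simulated with 200 genes changed by 2 on the log2 scale. The test recovered 100% of these in each of the 4 comparisons between genotypes, with 1 to 7 unchanged genes called. It recovered 95.0% in the difference between the macrophage perturbations, with 8 unchanged genes called. Real changes of about this size were not always called. Lpl in livers (2.12, adjusted p = 0.31 in edgeR) and Apoe in ECs (-2.21, 0.061) did not pass. All 9 members are named, Nr1h3, Nr1h2 and Rxra always, and of every other list the genes called whose mean log2 CPM reached 3, at most 4 per list in macrophages and 3 in ECs and livers by size of change. The members, lists and tests were chosen with earlier results of these data known. Alternatives were DESeq2, other scalings and filters, glmTreat, leaving out single libraries, a replicate block, Xist status and a fit over all macrophages. The values of 2 further genes are not reported here.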

Additional observations from a re-analysis of the deposited data

Results flagged for a closer look

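The change in HSC-KO mice differed between liver macrophages and ECs for 5 of the 8 genes tested, by an interaction test in edgeR that called 12.3% of all 18213 genes. The difference of log2 fold changes (macrophages minus ECs) was -6.87 for Pltp, -4.22 for Lpl, 3.11 for Apoe, -2.89 for Apoc1 and 1.51 for Mylip. The call of Apoe was lost in 10 of 20 alternatives. Between macrophages and livers of HSC-KO mice the same kind of test, which called 7.56% of all 19057 genes, gave -4.50 for Apoc1, -3.77 for Lpl, 3.23 for Ch25h and 1.29 for Mylip. Of these calls, that of Lpl was lost in 13 of 20 alternatives, that of Mylip in 12 of 20 and that of Ch25h in 10 of 19, and that of Apoc1 in none of 20. For Pltp and Lpl the 2 sorted populations moved in opposite directions in every HSC-KO library. No group had enough libraries to test a single library as far from the others.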

How the results depend on the processing

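Over all alternatives, 1046 log2 values of members were recomputed. Of these, 913 kept their direction and side of the thresholds, 69 lost and 33 gained a call, and 31 changed sign, none of them of a called member and none with an adjusted p below 0.05 in edgeR or DESeq2. In HSC-KO macrophages 4 members were called in the original fit and 3 to 5 elsewhere, in Smad4 cKO macrophages 3 and 2 to 4. In the test against a log2 value of 1, 4 members were called in ECs, 0 in livers, 3 for macrophages against ECs and 1 for macrophages against livers. In livers 1 was called with DESeq2 size factors and 1 with every gene of at least 1 count. For HSC-KO against Smad4 cKO macrophages DESeq2 called 1. The replicate block called 1 for macrophages against livers. It also called Apoe in ECs (-1.92), where 8 members then passed, and Abca1 (-1.41) and Abcg1 (-1.24) for macrophages against ECs. Same-numbered libraries correlated at -0.11 to 0.16, so the numbers were not taken as pairs; for macrophages against ECs, the 3 mice that gave both kinds of library carry different numbers in each, so that this block joins different mice. With 1 library left out, the number called ran from 6 to 8 in ECs, 0 to 2 in livers, 0 to 1 between the macrophage perturbations, 3 to 5 for macrophages against ECs and 1 to 3 for macrophages against livers.

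With library size alone, Abcg1 in HSC-KO macrophages was 0.01, Abca1 in Smad4 cKO macrophages 0.15, Apoc1 in livers -0.10 and Abcg1 for macrophages against livers 0.20; this scaling moved the median of all genes by 0.09, 0.16, 0.29 and -0.11 in HSC-KO macrophages, Smad4 cKO macrophages, ECs and livers. With Xist status, Abcg1 in livers was 0.03 and Mylip between the perturbations 0.11. With 1 library left out, signs turned for Abcg1 (-0.35 to 0.21) and Mylip (-0.16 to 0.39) in HSC-KO macrophages, Abca1 (-0.19 to 0.15), Apoe (-0.18 to 0.40) and Mylip (-0.05 to 0.47) in Smad4 cKO macrophages, Apoc1 (-0.09 to 0.13), Abcg1 (-0.24 to 0.03) and Ch25h (-0.48 to 0.49) in livers, Mylip (-0.37 to 0.28) and Pltp (-0.02 to 0.35) between the perturbations, and Abcg1 (-0.27 to 0.28) and Pltp (-0.56 to 0.00) for macrophages against livers. The cause of these shifts was not tested. Npc1l1 gave no value in any fit.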
